A study of Mus musculus with 40 samples.

Results

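The genes described here are 8 genes of Schwann cells and myelin, *Prx*, *Mbp*, *Cnp*, *Mag*, *Mog*, *Pmp22*, *Egr2* and *Sox10*, among 54307 genes listed for choroid and retina. They were chosen by name, as genes that could report the nerves of the choroid and optic nerve tissue carried over in dissection, and all 8 were found in the table. RNA came from 20 laser-treated mice, each giving 1 choroid and 1 retina, so that 40 libraries fell into 4 groups of 5 mice per tissue. All mice carried floxed *Tgfbr2* alleles and received tamoxifen eye drops and 6 laser spots per eye. Tgfbr2ΔEC mice also carried the tamoxifen-inducible recombinase Cdh5-CreERT2, which is driven by an endothelial promoter, and controls were littermates without it. Mice of each genotype were fed either the control diet (–PLX, mice 1 to 5 for control and 6 to 10 for Tgfbr2ΔEC) or a diet with PLX5622, an inhibitor of the CSF1 receptor that depletes mononuclear phagocytes (+PLX, mice 11 to 15 for control and 16 to 20 for Tgfbr2ΔEC). Choroid libraries were made from the lesioned centre of the tissue, and each library is a mixture of cell types. Fewer cells of a type and less RNA per cell can therefore not be told apart in any value given here.

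Myelin is the membrane wrapped around axons, made by oligodendrocytes in the central nervous system and by Schwann cells in peripheral nerves. The mouse retina itself normally holds no myelin, because the optic nerve becomes myelinated only behind the eye, whereas the choroid is crossed by ciliary nerves with Schwann cells. Periaxin (*Prx*) and peripheral myelin protein 22 (*Pmp22*) belong to Schwann cell myelin, although *Pmp22* is also expressed in many other cells. Myelin basic protein (*Mbp*), the cyclic nucleotide phosphodiesterase of myelin (*Cnp*) and myelin-associated glycoprotein (*Mag*) are made by both glial types, and myelin oligodendrocyte glycoprotein (*Mog*) is made by oligodendrocytes. *Sox10* encodes a transcription factor of Schwann cells, oligodendrocytes and melanocytes, and *Egr2* encodes one that Schwann cells need to myelinate and that many cells also induce as an immediate early gene.

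On GRCm39, *Prx* lies on the plus strand of chromosome 7 (27196813 to 27219639) and *Mag* on the minus strand of the same chromosome (30598464 to 30614474). *Cnp* (100465730 to 100482936) and *Pmp22* (63019718 to 63050600) lie on the plus strand of chromosome 11, and *Egr2* on that of chromosome 10 (67371305 to 67378018). *Mog* lies on the minus strand of chromosome 17 (37321521 to 37334350), *Sox10* on that of chromosome 15 (79039108 to 79049469) and *Mbp* on the plus strand of chromosome 18 (82493207 to 82603763). Each value sums all transcripts of a gene.

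Values are DESeq2-normalized counts, hereafter counts, which the authors scaled over both tissues together. The 20 choroids summed to 24718469 to 25956180 counts and the 20 retinas to 22256892 to 24507335. A single read was worth 0.91 to 1.19 counts in choroid and 0.75 to 1.13 in retina, so that 3 reads, treated as the floor of detection, corresponded to at most 3.57 counts. Tissue labels fitted their markers: the photoreceptor arrestin gene *Sag* lay between 100555 and 173073 in the retinas and between 279 and 14868 in the choroids, and the pigment gene *Pmel* at 21669 to 39971 in the choroids and 5.96 to 185 in the retinas. The pigment epithelium gene *Rpe65* was at 14927 to 43885 counts in the choroids, which thus held RNA of that layer and a variable amount of photoreceptor RNA. *Tgfbr2*, the floxed gene, overlapped between the genotypes in both tissues and diets. In choroids without PLX it ranged from 9836 to 10849 counts in controls and from 8729 to 11303 in Tgfbr2ΔEC mice. These whole-tissue values do not check the deletion in endothelium.

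All of the 8 genes but *Mog*, which was barely detected, were clearly higher in choroid than in retina. In a limma fit of the 40 libraries, with log2(count + 1) as the scale and Benjamini-Hochberg adjustment over 24317 genes, these 7 passed an adjusted p of 0.05 in that direction. *Mog* was called too, but it reached the minimum mean of 1 only through the choroids (mean 8.08 counts, against 0.915 in retina), so its call supports nothing. The background is large, as 82.0% of all genes tested were called in either direction and 40.8% were called higher in choroid. The median log2 difference over all genes was -0.01, a value near 0 that is largely set by the common scaling of the libraries. Of the 20 mice, 20 had a higher choroid value for every gene except *Mog*, which was higher in choroid in 15. How many of all genes were higher in choroid in every mouse was not counted, so this is not read as particular to these genes. The gene by gene plot shows both tissues by group.

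**Figure D1:**
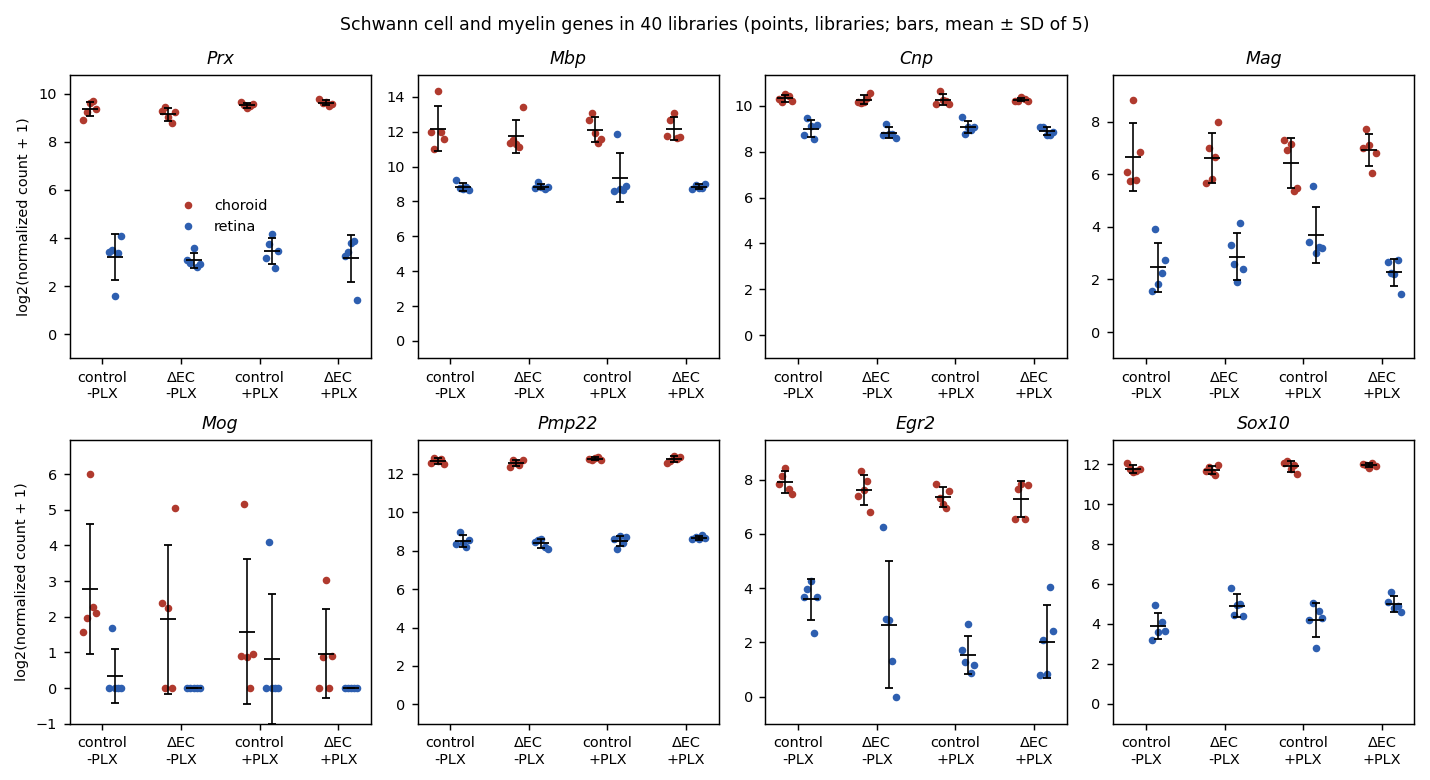
Log2(normalized count + 1) of the 8 genes in 20 choroids (red) and 20 retinas (blue), by genotype and diet. Points are libraries, bars give the mean ± SD of 5 mice. Choroid and retina do not overlap for *Prx*, *Cnp*, *Pmp22*, *Egr2* and *Sox10*, and single choroids stand far above their group for *Mbp*, *Mag* and *Mog*. The share of all genes without such overlap was not computed.

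*Prx*, the scaffold protein of Schwann cell myelin, ranged from 436 to 878 counts in choroid, with a median of 712, and from 1.73 to 17.1 in retina, with a median of 9.60. No retina reached a choroid, and the log2 difference was 6.18 (SE 0.17, adjusted p = 1.4e-28 from limma). *Pmp22* ranged from 5194 to 7729 counts in choroid, with a median of 6618, and from 267 to 506 in retina, with a median of 381. Its tissue difference was 4.18 (SE 0.06), and its coefficient of variation over the choroids, 10.3%, was the lowest of the 8 genes. *Cnp* differed least between tissues among genes above the floor. Its choroids lay between 1077 and 1603 counts and its retinas between 378 and 716, a log2 difference of 1.33 (SE 0.07) without overlap.

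*Mbp*, the major cytoplasmic protein of compact myelin, ranged from 2056 to 20928 counts in choroid (median 3381) and from 388 to 3707 in retina (median 435). Excluding the retina of mouse 12, the retinas lay at 388 to 588, all below the lowest choroid. The log2 difference was 3.08 (SE 0.25). The *Mbp* locus also gives golli transcripts outside myelin, which a value per gene does not separate. *Mag*, an adhesion molecule of the inner myelin membrane, ranged from 39.6 to 450 counts in choroid (median 113) and from 1.70 to 46.2 in retina (median 5.55), a log2 difference of 3.84 (SE 0.28). Its lowest choroids, mice 14 and 15 (39.6 and 43.4 counts), lay below the retina of mouse 12 but above the other 19 retinas. *Mog* was close to the limit of detection: 12 choroids and 19 retinas were at or under the 3-read floor, and 5 choroids and 18 retinas were listed at 0. Its fitted log2 difference of 1.52 (SE 0.45, adjusted p = 0.00218 from limma) depends on the added 1.

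*Sox10* had the largest tissue difference of the 8 genes. It ranged from 2832 to 4546 counts in choroid (median 3592) and from 6.02 to 54.9 in retina (median 23.3), a log2 difference of 7.32 (SE 0.14). *Egr2* ranged from 93.0 to 349 in choroid (median 198). In retina it ranged from 0 to 75.7 (median 4.17), with 9 of 20 retinas at or under the floor, and the log2 difference was 5.10 (SE 0.33).

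Without the 4 mice with the most *Mobp* in choroid (over 500 counts), the tissue difference was 2.87 for *Mbp*, 3.62 for *Mag* and 0.96 for *Mog*, and the 7 genes other than *Mog* were still called.

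Per kilobase of merged exons, the choroid medians ran from *Pmp22* (1613 counts per kb) and *Sox10* (1078) through *Mbp* (347), *Cnp* (292), *Prx* (126), *Egr2* (58.3) and *Mag* (22.7) to *Mog* (0.635). Of neighbours in this order, only *Cnp* and *Prx* had ranges over the 20 choroids that did not overlap. In retina the order was *Cnp* (117), *Pmp22* (92.8), *Mbp* (44.6), *Sox10* (6.99), *Prx* (1.69), *Egr2* (1.22), *Mag* (1.12) and *Mog* at 0, and only *Mbp* and *Sox10* were neighbours whose ranges did not overlap.

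Glial genes outside the 8 were taken from 3 marker lists. Of 11 Schwann cell genes, 7 were called higher and 2 lower in choroid, with a median log2 difference of 1.97. The 7 include *Foxd3*, listed at 0 in all 20 retinas, which passed the filter on low values only through the choroids. The adhesion molecule *Cdh19* was 6.65 (SE 0.17) higher and the neuregulin receptor *Erbb3* 5.57 (SE 0.23). The Schwann cell ligand *Dhh* was lower in choroid, at -1.2 (SE 0.08), and so was the neurotrophin receptor *Ngfr*, at -0.30 (SE 0.08). Of 10 oligodendrocyte genes, 9 could be tested and 7 were called higher, with a median of 4.12. Of these 7, *Olig1* and *Nkx6-2* had retina means under 1 count and passed the same filter only through the choroids, as did *Opalin*, which was not called. That list includes *Ermn* and *Myrf*, which were at 1838 to 5590 and 4305 to 10164 counts in choroid, while *Opalin*, restricted to oligodendrocytes, was at or under the floor in 17 choroids and *Olig2* in 18. The cells behind these values were not tested, and the list median is not read as a measure of oligodendrocyte RNA. Of 10 genes shared by both glia, 9 were higher and 1, the node protein gene *Nfasc* that neurons also express, was lower (median 2.51).

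**Figure D2:**
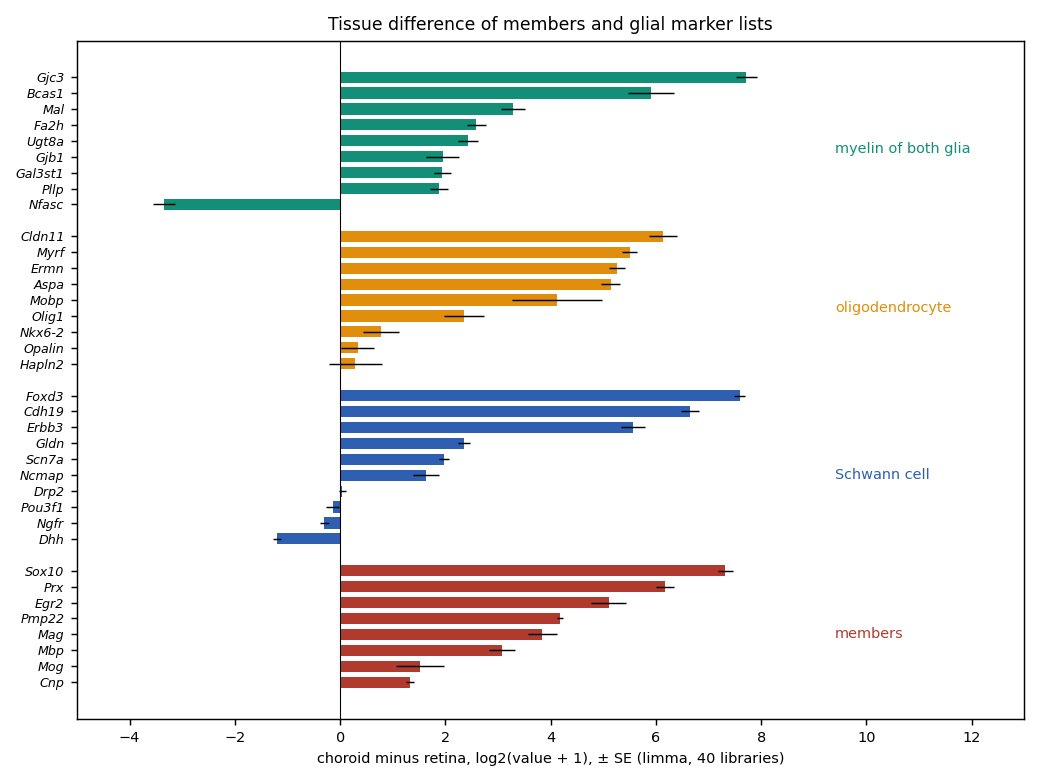
Choroid minus retina differences of log2(normalized count + 1) from limma over 40 libraries, with SE, for the 8 genes and the genes shown of 3 glial marker lists. All 8 genes lie above 0, with *Sox10* at 7.32 and *Cnp* at 1.33, and *Nfasc*, *Dhh* and *Ngfr* were called lower in choroid.

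SOX10 binds short SOX-type letters and EGR2 a GC-rich EGR-type motif, so promoters of 6 of the 8 genes were searched (RefSeq, GRCm38.p6, 250 bases before to 50 after a start, a build other than that of the counts). *Sox10* and *Mbp* were not searched. ACAAAG and ACAATG were searched as SOX-type and GCGNGGGCG as EGR-type letters, on both strands. In 32544 distinct promoters, 18.7% held ACAAAG, 12.4% ACAATG, 28.4% either, and 5.6% GCGNGGGCG. *Cnp* held 1 ACAAAG, and so did 2 of 3 listed *Mag* starts, whose windows overlap and share the same site. The listed starts of *Prx*, *Mog*, *Pmp22* and *Egr2* held none of the 3, which says only that these letters are not in these windows. The first *Mag* start (minus strand, chr7:30914814-30915113), *Cnp* (plus strand, chr11:100574689-100574988) and *Prx* (plus strand, chr7:27499074-27499373) are printed 5′ to 3′ to set the Schwann cell gene beside both genes with a match. Capitals mark ACAAAG or its reverse complement.
Mag: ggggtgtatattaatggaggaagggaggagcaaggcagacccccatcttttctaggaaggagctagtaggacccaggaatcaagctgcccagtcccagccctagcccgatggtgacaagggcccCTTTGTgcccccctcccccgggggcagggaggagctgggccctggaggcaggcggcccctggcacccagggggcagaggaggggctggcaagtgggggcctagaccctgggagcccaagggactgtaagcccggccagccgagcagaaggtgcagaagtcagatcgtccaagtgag
Cnp: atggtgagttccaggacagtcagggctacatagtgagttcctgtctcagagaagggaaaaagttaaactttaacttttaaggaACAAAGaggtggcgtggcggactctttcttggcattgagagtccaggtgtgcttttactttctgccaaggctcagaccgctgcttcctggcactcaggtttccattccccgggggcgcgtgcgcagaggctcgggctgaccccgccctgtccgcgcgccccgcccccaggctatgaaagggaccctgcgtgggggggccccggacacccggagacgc
Prx: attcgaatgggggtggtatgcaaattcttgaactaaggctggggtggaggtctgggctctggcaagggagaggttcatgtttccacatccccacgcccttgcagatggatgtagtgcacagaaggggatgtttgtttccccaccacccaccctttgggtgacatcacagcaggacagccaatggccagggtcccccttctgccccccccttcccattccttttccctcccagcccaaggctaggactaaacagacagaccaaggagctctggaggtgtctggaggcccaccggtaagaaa

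Within choroid, the 8 genes varied to different degrees. The coefficient of variation over the 20 choroids was 10.3% for *Pmp22*, 11.6% for *Cnp*, 13.8% for *Sox10*, 17.3% for *Prx* and 35.1% for *Egr2*, but 77.4% for *Mag*, 84.7% for *Mbp* and 202% for *Mog*. The choroids with the highest *Mbp* were mouse 3 (20928 counts), mouse 10 (10973), mouse 18 (8575) and mouse 12 (8422), 1 in each group, followed by mouse 11 (6434) and mouse 17 (6422). The same 4 choroids were the highest 4 for *Mog*, with 63.4 counts in mouse 3, 34.8 in mouse 12, 31.9 in mouse 10 and 7.22 in mouse 18, above 4.19 in mouse 6. They were also the highest 4 for *Mobp*, a central myelin gene outside the 8, with 2233, 990, 660 and 542 counts in mice 3, 10, 18 and 12. *Mobp* was graded rather than split, as mice 17, 11 and 1 followed with 387, 232 and 220 counts and the lowest choroid had 1.98. *Opalin* exceeded the floor in 3 choroids, mouse 3 (15.7 counts), mouse 18 (4.54) and mouse 10 (3.31), and in mouse 12 it was under the floor.

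*Mag* followed in part. Mice 3 and 10 had its highest choroid values (450 and 252 counts), but mouse 17 came next (209) and mouse 12 lay near the median at 119. *Cnp* was highest in mice 12, 10 and 3 (1603, 1514 and 1440 counts), while mouse 18 (1324) lay below mouse 4 (1385). *Prx*, highest in mouse 16 (878 counts), was at 797 counts in mouse 18, 788 in mouse 3, 731 in mouse 12 and 595 in mouse 10, against a median of 712. Over the 20 choroids *Prx* and *Mbp* had r 0.38 and ρ 0.52 (permutation p = 0.0982 and 0.0215, adjusted p = 0.285 and 0.156), and r was 0.34 without mice 9 and 1. *Mog* stood at 2.84% of *Mobp* in the choroid of mouse 3, 3.22% in mouse 10, 6.43% in mouse 12 and 1.1% in mouse 18.

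**Figure D3:**
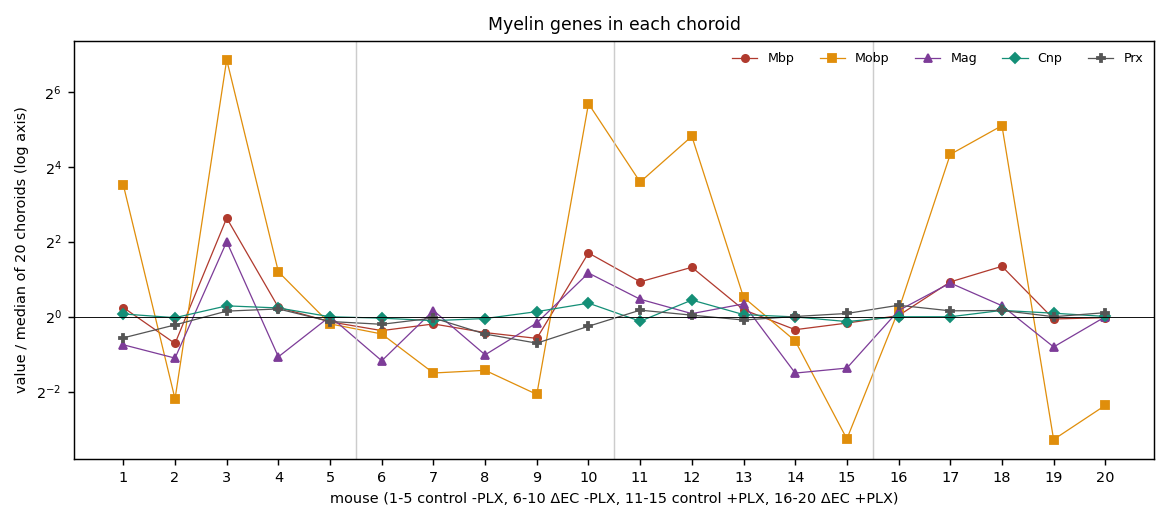
Value of 5 myelin genes in each of the 20 choroids divided by the median of the 20, on a log axis, with the mice ordered by group. *Mobp*, *Mbp* and, in mice 3 and 10, *Mag* are high together in single choroids of every group, whereas *Prx* and *Cnp* vary less.

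Among 17524 genes with a mean of at least 10 counts in choroid, the gene whose log2 values followed *Mbp* most closely over the 20 choroids was *Mobp* (Pearson r 0.91, and 0.89 without mice 3 and 10), then *Hepacam* (0.90), an adhesion gene of glia. *Hepacam* was also closest to *Mag* (0.74), with *Mobp* the third (0.71). *Slc22a21* (0.81) and *Urod* (0.78) were among the 3 closest to *Prx*. *C4b*, a complement gene, was closest to *Cnp* (0.91), *Ski* to *Pmp22* (0.82), *Hnrnpf* to *Egr2* (0.81), *Pgrmc1* to *Sox10* (0.84) and *Tmem11* to *Mog* (0.80, falling to 0.62 without mice 3 and 12). These are the highest of many values and are given as a description, over libraries that share depth and tissue composition.

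Over the choroids, *Sox10* followed a melanocyte score, the mean of log2(count + 1) over 8 pigment cell genes, with Pearson r 0.81 and Spearman ρ 0.82 (n = 20; permutation p = 5e-05 for both, adjusted over 116 relations p = 0.00145 and 0.0029). Without the 2 choroids farthest from the median score, mice 11 and 9, r was 0.76, and after subtracting group means it was 0.77. With a score of 6 pigment epithelium genes, *Sox10* had r 0.51 and ρ 0.47 (permutation p = 0.0218 and 0.0393, adjusted p = 0.101 and 0.209). The choroids also held pigment epithelium RNA, and its part in the melanocyte score was not tested. With the Schwann cell score, *Sox10* had r 0.40 and ρ 0.40 (permutation p = 0.0775 and 0.0808), and with *Prx* r 0.26 and ρ 0.19 (permutation p = 0.274 and 0.413). *Prx* followed the Schwann cell score, the mean over 11 genes, with r 0.67 and ρ 0.69 (permutation p = 0.00115 and 0.00117, adjusted p = 0.0148 and 0.0226), 0.71 without mice 5 and 2 and 0.47 after subtracting group means.

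**Figure D4:**
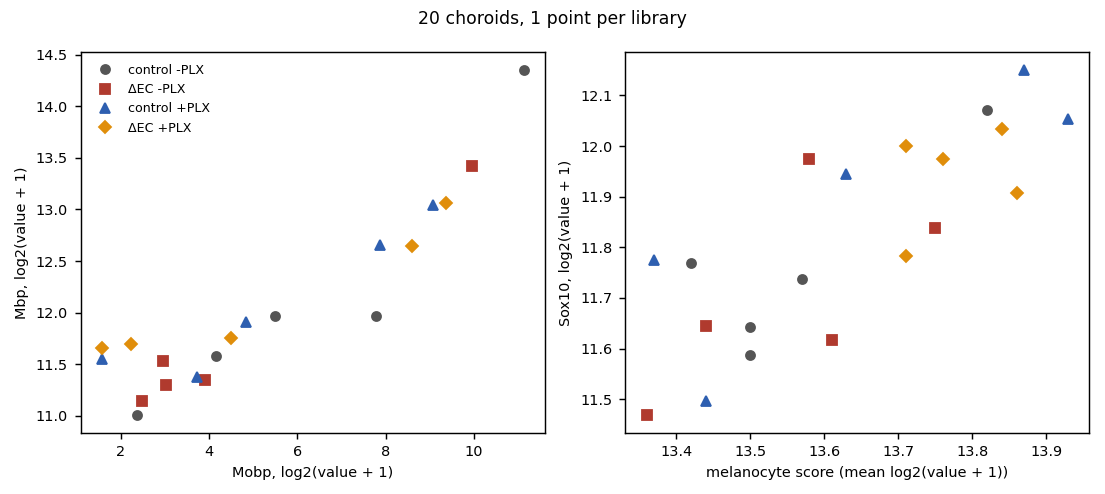
*Mbp* against *Mobp* and *Sox10* against the melanocyte score in the 20 choroids, as log2(normalized count + 1), with symbols by genotype and diet. Points of all 4 groups lie along each trend, and the Pearson r values are 0.91 and 0.81.

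Genotype and diet were compared within each tissue, as the study did, with the 4 groups in 1 limma fit over 23619 genes in choroid and 23243 in retina. *Mog* had a mean under 1 in retina and was not tested there. In choroid, none of the 8 genes passed the threshold between Tgfbr2ΔEC and control mice without PLX, where 0.00423% of all genes did (1 gene, with 2184 at an unadjusted p under 0.05). With PLX none passed either, where the share of all genes was again 0.00423% (889 genes at an unadjusted p under 0.05). The 95% intervals for *Pmp22* were -0.29 to 0.07 without PLX and -0.20 to 0.17 with PLX on the log2 scale, and those for *Sox10* were -0.30 to 0.20 and -0.19 to 0.30. For *Mbp* and *Mag* the intervals were wide, from -1.53 to 0.67 and from -1.2 to 1.15 without PLX, and for *Mog* from -3.07 to 1.37. Leaving out mouse 3, a control, turned the difference without PLX from -0.43 to 0.12 for *Mbp* and from -0.02 to 0.52 for *Mag*. That of *Mag* also turned without mouse 5, 6 or 8 (0.02 to 0.22). The difference between both genotype effects was called for 0% of genes and for none of the 8 (1552 genes at an unadjusted p under 0.05).

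*Prx* was the only 1 of the 8 called for PLX, in Tgfbr2ΔEC choroids. It measured 436, 516, 595, 618 and 694 counts in Tgfbr2ΔEC –PLX choroids and 711, 766, 792, 797 and 878 in Tgfbr2ΔEC +PLX choroids, so that the groups did not overlap. The means were 572 ± 99.1 and 789 ± 60.6 counts (SD, n = 5 each), a log2 difference of 0.48 (SE 0.13, 95% interval 0.20 to 0.76, adjusted p = 0.0484 from limma), and 4.06% of all genes were called in this comparison. The exact two-sided permutation test gave p = 0.00794, the smallest that 5 against 5 mice allow. In controls, *Prx* measured 480 (mouse 1), 610, 650, 788 and 820 counts without PLX and 668, 713, 731, 754 and 802 with PLX, a log2 difference of 0.15 (95% interval -0.13 to 0.44, adjusted p = 0.693 from limma), where 3.75% of genes were called. The genotype effect on *Prx* without PLX minus that with PLX, which equals the PLX effect in controls minus that in Tgfbr2ΔEC mice, was -0.32 (SE 0.19, adjusted p = 0.88 from limma). An effect in Tgfbr2ΔEC mice alone was therefore not shown.

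The call for *Prx* was close to the threshold. Leaving out single mice moved its adjusted p between 0.0235 (without mouse 1) and 0.153 (without mouse 9), and the call was lost in 15 of 20 such fits. In the same comparison *Cdh19* had a log2 difference of 0.33 (SE 0.11, adjusted p = 0.107) and *Erbb3* of 0.42 (SE 0.11, adjusted p = 0.0258), the 1 called gene of 11 on the Schwann cell list by limma. The differences of 10 of the 11 were above 0, with a median of 0.37, and for PLX in control choroids those of 11 of 11 were, with a median of 0.20 and 0 called. Endothelial genes were above 0 in 8 of 8 for PLX in both genotypes (1 called in each), with medians of 0.20 in Tgfbr2ΔEC and 0.26 in control choroids. Photoreceptor RNA differed in the same comparison, with the Tgfbr2ΔEC –PLX choroids at the high end. The photoreceptor score, the mean of log2(count + 1) over 10 genes, ranged from 11.37 to 12.91 in Tgfbr2ΔEC –PLX choroids and from 9.02 to 10.34 in Tgfbr2ΔEC +PLX choroids, and the differences of 10 of 10 genes were below 0 (1 called), with a median of -2.19. Control –PLX choroids had scores of 7.75 to 10.70, below every Tgfbr2ΔEC –PLX choroid, while those of control +PLX choroids spread between 7.69 and 12.86. The median photoreceptor difference was 2.48 between genotypes without PLX (10 of 10 genes above 0, 0 called) and 0.14 for PLX in controls. With this score as a covariate the *Prx* difference was 0.42 (adjusted p = 0.329 from limma). The phagocyte score, over 8 genes, lay at 10.82 to 11.05 without and 8.36 to 9.02 with PLX in these mice, with 7 of 8 genes called lower. Apart from that covariate fit, the part of photoreceptor or phagocyte RNA in the *Prx* result was not tested. *Prx* and the phagocyte score had r -0.60 and ρ -0.58 over the 20 choroids (permutation p = 0.00418 and 0.00833, adjusted p = 0.0404 and 0.0878), and r -0.10 after subtracting group means.

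The other 7 genes were not called for PLX in choroid. *Pmp22* had a log2 difference of 0.21 in Tgfbr2ΔEC mice (95% interval 0.03 to 0.39, adjusted p = 0.225 from limma) and 0.12 in controls (-0.07 to 0.30). *Egr2* had differences of -0.34 and -0.55, with intervals of -0.97 to 0.29 and -1.18 to 0.08. *Cnp* differed by -0.01 and -0.06, with intervals of -0.24 to 0.22 and -0.29 to 0.16.

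**Figure D5:**
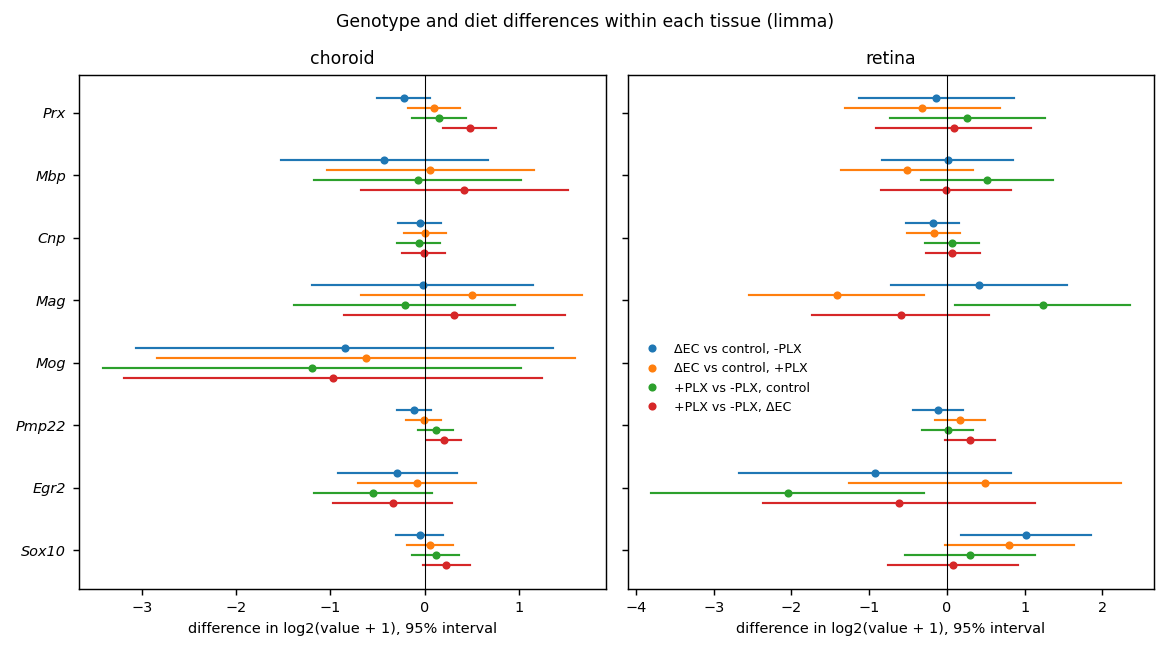
Log2 differences of the 8 genes for genotype and PLX within choroid (left) and retina (right), with 95% intervals from limma. The interval of *Prx* for PLX in Tgfbr2ΔEC choroids, 0.20 to 0.76, is the only 1 whose gene was called after adjustment, and intervals are wide for *Mbp*, *Mag*, *Mog* and, in retina, *Egr2*.

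In retina, none of the 7 genes tested was called for genotype, where 0% of genes were called without PLX (758 at an unadjusted p under 0.05) and 0% with PLX (629). None was called for PLX either, where 0.736% of genes passed in controls and 0.516% in Tgfbr2ΔEC mice, and the interaction was called for 0% of genes (567 at an unadjusted p under 0.05). *Mag* did not overlap between the genotypes with PLX, at 6.98, 8.24, 8.40, 9.79 and 46.2 counts in controls and 1.70, 3.67, 3.79, 5.39 and 5.71 in Tgfbr2ΔEC mice, with a log2 difference of -1.42 (exact permutation p = 0.00794, adjusted p = 1 from limma), or -0.95 without mouse 12. Without PLX the *Mag* difference lay the other way, at 0.41, with means of 7.53 counts in Tgfbr2ΔEC and 5.58 in control retinas (exact permutation p = 0.484), and 4 of the 20 retinas were at or under the floor. *Pmp22* did not overlap between diets in Tgfbr2ΔEC mice, at 272 to 382 counts without and 384 to 449 with PLX, a log2 difference of 0.30 (exact permutation p = 0.00794, adjusted p = 1 from limma). The nearest values, 382 and 384, differed by less than the spread within either group. Of 64 comparisons of single genes, *Prx* in choroid and these 2 were the only ones without overlap. The exact permutation p values were not adjusted over the 64. The share of all genes without overlap was not computed, so this count is not read as a result about the 8 genes. *Sox10* in Tgfbr2ΔEC and control retinas without PLX had means of 31.3 ± 14.1 against 15.3 ± 8.56 counts (SD, n = 5 each; exact permutation p = 0.0317), and the limma adjusted p was 0.985. *Egr2* in control retinas with and without PLX had means of 2.22 ± 1.83 against 12.1 ± 5.28 counts (SD, n = 5 each; exact permutation p = 0.0159, limma adjusted p = 0.703), with 4 of the 5 retinas with PLX at or under the floor.

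The retina of mouse 12 stood apart from the other 19. It had 3707 counts of *Mbp*, 46.2 of *Mag* and 16.1 of *Mog*, with 389 of *Mobp*, and *Mobp* did not exceed 44.7 in any other retina. *Prx* (12.6 counts) lay within the range of the other retinas. The choroid of the same mouse was among the 4 with the highest *Mbp*, *Mog* and *Mobp*. In this retina *Mog* stood at 4.13% of *Mobp*, against 6.43% in its choroid.

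*Cnp* in retina, which lay at 378 to 716 counts, followed a score of 8 immediate early genes, with r 0.73 and ρ 0.76 (n = 20; permutation p = 0.00028 and 0.00013, adjusted p = 0.0168 and 0.0151), 0.68 without mice 4 and 8 and 0.71 after subtracting group means. *Sox10* in retina followed a score of 6 pigment epithelium genes, with r 0.74 and ρ 0.61 (permutation p = 0.00029 and 0.00474, adjusted p = 0.0168 and 0.183), but r fell to 0.46 without mice 13 and 1, so that the relation rests in part on these retinas.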

How the data were processed

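RNA of choroid and retina of 20 mice was sequenced from stranded poly-A libraries. The authors estimated reads with Salmon 1.10.1 on GRCm39, and after tximport and DESeq2 1.36.0 they deposited this signal per gene as normalized counts that are not whole numbers. Choroid libraries held about 21537996 to 28020014 reads and retina libraries about 20847747 to 30218770, estimated from the steps between low values, and the 3-read floor covers counting error only. Symbols came from GENCODE for GRCm39, matching 53700 of 54307 identifiers.

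Genes whose mean reached 1 were tested with limma 3.58.1 (mean-variance trend) on log2(count + 1) in R 4.3.3, calling adjusted p at or under 0.05. Single genes were compared by exact permutation tests and correlations by permutation. The choroid and retina of a mouse share its number, so mouse was a block in an alternative. The authors' covariates, sex and a neuronal percentage, were not used here. The 8 genes and the lists were chosen with earlier results of these data known. Genes named are the 8, list genes that define a list or pass a test, and the 3 genes nearest to each of the 8. The procedure was tested on simulated data. Some single genes are not reported here. Other steps ran in Python 3.11.15 with scipy 1.17.1, pandas 2.3.3 and numpy 2.4.6.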

Additional observations from a re-analysis of the deposited data

Results flagged for a closer look

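Within groups of 5 libraries, a value was singled out where its gap to the nearest other value exceeded 0.71 of the range of its group (Dixon's criterion). This held in 17 of 64 groups, and all 17 were high values. For normally distributed values chance would give about 1 in 20 groups, but the gaps were taken on counts, which are skewed to high values, and 2 *Mog* groups of the 64 had all 5 retinas at 0, so the number singled out is not compared with chance.

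In choroid, *Mog* stood out in all 4 groups, with gaps of 0.970 (mouse 3), 0.869 (mouse 10), 0.973 (mouse 12) and 0.881 (mouse 18). *Mbp* stood out in mouse 3 (0.896) and mouse 10 (0.921), *Mag* in mouse 3 (0.847) and *Cnp* in mouse 12 (0.719). In retina, mouse 12 stood out for *Mbp* (0.975), *Mag* (0.928) and *Mog* (1.000), the last against 4 retinas at 0. *Mog* in the retina of mouse 2 also had a gap of 1.000, at 2.24 counts, which is under the floor.

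*Mbp* stood out in the retinas of mouse 1 (588 counts, gap 0.724) and mouse 7 (553 counts, gap 0.816), and *Cnp* in that of mouse 7 (594 counts, gap 0.743). *Egr2* stood out in the retinas of mouse 6 (75.7 counts against 0 to 6.28 in the others, gap 0.917) and mouse 19 (15.6 counts, gap 0.759).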

How the results depend on the processing

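The tissue differences kept their direction and their call in every alternative run for the 7 genes other than *Mog*, whose call rests on the filter and is not read as stable. The choroid and retina with the same number came from the same mouse, and in the paired fit with mouse as a replicate block these 7 genes were again called. The background was large in every alternative, with at least 15819 of all genes called between the tissues. The call of *Prx* for PLX in Tgfbr2ΔEC choroids was the one result that changed: 1 of the 8 genes was called as reported and 0 with all genes above 0 tested, 0 after rescaling by total, 0 with a sex score, 0 with a photoreceptor score, 0 with both scores as covariates, and 0 without the 4 mice with *Mobp* over 500 counts in choroid, an alternative chosen after seeing the data. Leaving out single mice gave 0 to 1 genes. Its log2 difference lay between 0.367 and 0.553 in all settings. Of 2596 values for single genes, 2441 kept direction and side of the threshold, 21 lost the call and 134, called in neither fit, changed sign (86 of these on leaving out 1 mouse). The cause was not tested. Over all genes, the calls for genotype without PLX in choroid were 1 as reported, 410 without mouse 15, 201 in a fit of both groups alone and 0 among genes with a mean of at least 10, and those for PLX in Tgfbr2ΔEC choroids 958 as reported and 472 with both scores as covariates. PLX in control choroids gave 885 and, in a fit of both groups alone, 578, and in control retinas 171 and, among genes with a mean of at least 10, 104. Depth limits *Mog* in both tissues and *Egr2* in retina, which lie near the floor.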

Other observations

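The retina of mouse 1 stood apart from the others in a different set of glial genes. It had 1770 counts of *Mal*, a lipid raft gene of myelinating and epithelial cells, against 59.4 to 152 in the other 19 retinas. It had 64.7 counts of *Bcas1*, where only mouse 12 (41.8) came near, and 198 of *Erbb3*, against at most 30.8 in the others. *Mog* was at 0 in this library and *Mobp* at 2.20 counts, while *Mbp* was at 588.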
